A study of Mus musculus with 4 samples.

Results

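The genes of glycolysis, gluconeogenesis, fructose handling, the pentose phosphate pathway and glycogen turnover were examined in kidneys of diabetic and nondiabetic mice. The set was a list of 37 enzyme and transporter genes, given by name, out of 18193 genes with a probe set on the array. No measured value entered the rule, but the list was chosen with earlier results of these data known. Of the 37 genes, 32 had at least 1 ordinary probe set assigned to that gene alone, and Gapdh was measured only by 3 control probe sets. Gpi1, Eno1, Pfkfb1 and G6pdx were not analysed here, because no probe set used here named them singly. A further pair, Hk2 and Hk3, stayed below the expression filter, so 30 members were compared with the 11197 genes above that filter.

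The study asked how diabetes and loss of renal mass together alter renal gene expression. The 4 groups were diabetic OVE26 mice after uninephrectomy (surgical removal of 1 kidney), diabetic OVE26 mice after sham surgery, nondiabetic mice after uninephrectomy, and nondiabetic mice after sham surgery. All mice were female, of FVB/NJ background, on standard chow, had surgery at 2 months of age and were killed at 4.5 months, 10 weeks after surgery. The OVE26 transgene acts in pancreatic beta cells and makes the mice diabetic early in life, so insulin deficiency precedes surgery. RNA from the kidneys of 4 mice was pooled in each group, and each pool was hybridised to 1 array, which leaves no measure of the spread between animals. Whole kidney was used, so fewer cells of a type and less RNA per cell cannot be told apart in any value below.

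The kidney both uses and makes glucose. Glycolysis splits glucose to pyruvate and lactate and is most active in distal segments and the medulla, while gluconeogenesis rebuilds glucose from lactate, glutamine and glycerol in the proximal tubule and is known to respond to acidosis, fasting and insulin. Fructose is phosphorylated by ketohexokinase in the proximal tubule, and the pentose phosphate pathway branches off at glucose 6-phosphate to make NADPH and ribose.

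No member passed the test for either factor, and the branches did not behave alike. Both diabetic arrays stood above both nondiabetic arrays for 7 of 12 glycolytic and 2 of 3 pentose phosphate members, where 19.1% of all expressed genes did so. Among these members the limma estimates for diabetes were 0.54 for Pfkp, 0.38 for Pkm, 0.34 for Pfkl and 0.32 for Pgd, none of which passed. Of further genes of these pathways outside the list, 2 of 7 glycolytic and 1 of 6 pentose phosphate genes had both diabetic arrays above. Gluconeogenic genes had lower signals with diabetes in uninephrectomised mice (median log2 difference -0.26) and higher signals with diabetes in sham mice (median 0.28). Added control transcripts (the spike-ins described below) had medians of the same signs, -0.41 and 0.31. The part of array brightness in the gluconeogenic medians was not tested. By their brightest probe sets, only 3 of 30 members were lower on both diabetic arrays, a smaller share than the 18.6% of all expressed genes. The test was limma's moderated test of an additive model over all 4 arrays, in which each factor is fitted with the other as covariate. The disagreement between the arms gave 1 residual degree of freedom a gene, beside 59.5 prior ones drawn from all genes. A gene's own disagreement thus weighed little in its error. The p-values of this test do not describe variation between mice.

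**Figure D1:**
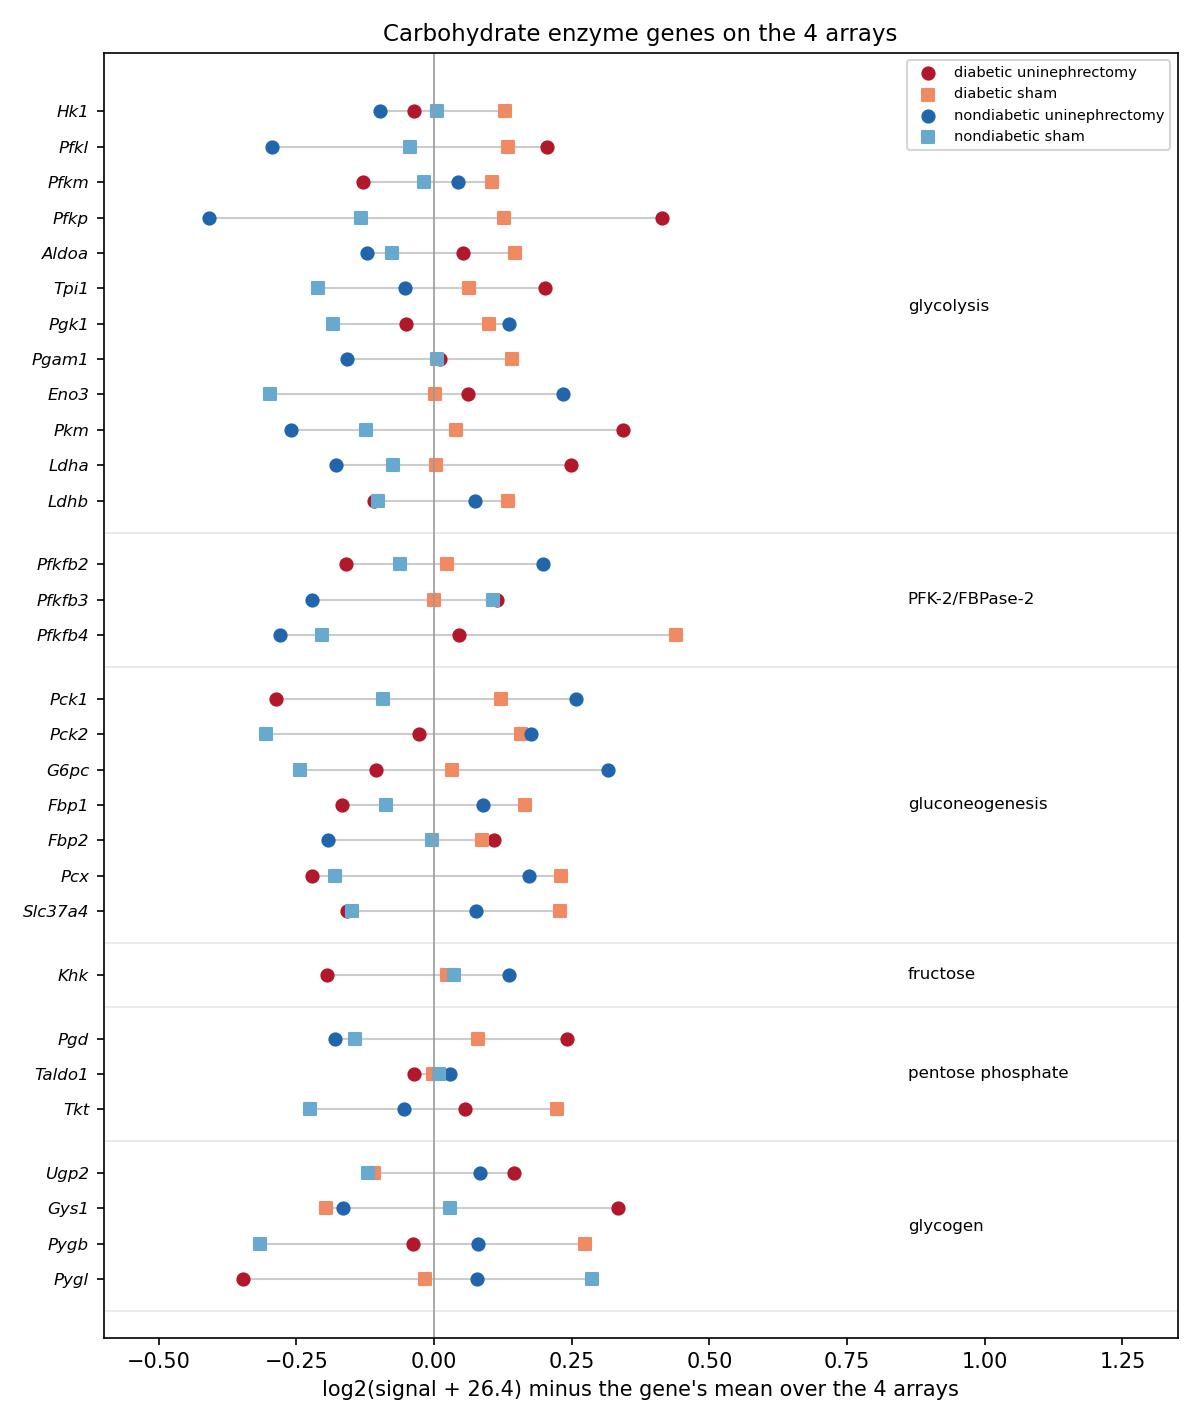
Each row is 1 of the 30 members above the filter, grouped by branch, and each point is 1 array, placed at its log2(signal + 26.4) minus the gene's mean over the 4 arrays. Red and orange points (diabetic uninephrectomy and diabetic sham) lie to the right of blue points (nondiabetic uninephrectomy and nondiabetic sham) in 7 of 12 glycolytic rows, whereas in 6 of 7 gluconeogenic rows the diabetic sham and nondiabetic uninephrectomy arrays lie to the right of the other 2. Over all expressed genes these patterns were held by 19.1% and 18.2%, and the second by 49.1% of genes with a mean signal of at least 10000. Of the gluconeogenic rows, only Pck1, G6pc and Fbp1 are that bright.

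Several facts of the whole series bear on these values. Hybridisation spike-ins, which are added bacterial and phage transcripts, had a geometric mean signal of 4278 on the diabetic uninephrectomy array, 5772.5 on the diabetic sham array, 5713.2 on the nondiabetic uninephrectomy array and 4660.8 on the nondiabetic sham array. The diabetic sham and nondiabetic uninephrectomy arrays were thus the brighter pair, and 187 of 381 expressed genes with a mean signal of at least 10000 (49.1%) were highest on that pair, against 18.2% of all expressed genes. Probe sets for 18S ribosomal RNA had geometric means of 21341.2, 14961.5, 11553.9 and 11337.2 in the same order of arrays. The median log2 difference over all expressed genes lay between -0.02 and 0.01 in the 4 comparisons. Other bacterial control probe sets were left out of the spike-ins, and they did not all follow them. With diabetes in uninephrectomised and sham mice, LysX-3 had log2 differences of -0.35 and 0.21, but DapX-5 had 0.08 and -0.39. Proximal tubule markers, 15 of 16 above the filter, summed to 164961, 208894, 236886 and 226905 signal units, which places renal tubule RNA on every array. Over the markers above the filter, adipocyte genes (4 of 8) summed to 13228, 26326, 5381 and 14443, and Lep stayed between 8.1 and 29.1. Macrophage and myeloid genes (8 of 10) summed to 14916, 8904, 8049 and 9372, and tubular injury genes (7 of 9) to 37482, 16970, 16042 and 12253. Skeletal muscle markers other than Ckm and Pvalb stayed below the filter. The part of any of these in the results below was not tested, except where a value is given.

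Diabetes was first compared over the whole set. By limma with Benjamini-Hochberg adjustment over all expressed genes, 0 of 30 members passed at an adjusted p of 0.05, where 1.48% of all expressed genes rose and 0.75% fell. At an unadjusted p below 0.05 the same limma fit gave 4 of 30 members, Pfkp, Pkm, Pgd and Pygl, and 1067 of 11197 expressed genes. By a fold of at least 1.5 between single arrays, which has no test, 2 members were higher in diabetic than in nondiabetic uninephrectomised mice, Pfkp and Pkm, where 6.42% of all expressed genes were higher. None was that much lower, where 6.05% of all genes were. In sham mice Pfkfb4 and Pygb were at least 1.5-fold higher with diabetes, where 4.34% of all genes were higher, and none was lower, where 3.13% were. Each member was taken here by its brightest probe set. The dimmer Pck1 probe sets had log2 differences with diabetes of -0.62 and -1.29 in uninephrectomised mice, and -0.25 and -0.84 in sham mice. A dimmer Pgd probe set had 0.65 in uninephrectomised and 0.31 in sham mice.

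Counting patterns rather than fold changes, both diabetic arrays stood above both nondiabetic arrays for 11 of 30 members (36.7%), where 19.1% of all expressed genes did so. They stood below for 3 of 30, Khk, Taldo1 and Pygl, where 18.6% of all genes did so. The 11 were Pfkl, Pfkp, Aldoa, Tpi1, Pgam1, Pkm and Ldha of glycolysis, Pfkfb4, Fbp2, Pgd and Tkt. When every probe set above the filter was counted singly, 23 of the members' 54 had both diabetic arrays above, where 17.6% of all such probe sets did, and 7 had both below, where 19.5% did. Probe sets of 1 gene share transcripts, so these counts are not independent, and they carry no test. Counts of this kind were added after the values were seen.

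The 3 largest mean differences of glycolysis were those of Pfkp, Pkm and Pfkl, which act at irreversible steps. Hk1 and Pfkm, also of irreversible steps, had limma estimates for diabetes of only 0.09 and -0.02. Pfkp, the platelet-type phosphofructokinase of the committing step, had signals of 2092.4 and 1710.3 in diabetic uninephrectomy and diabetic sham kidneys, against 1170.7 and 1423.9 in nondiabetic uninephrectomy and nondiabetic sham kidneys. Both diabetic values lay above both nondiabetic ones, and the uninephrectomised pair was the farther apart. The log2 difference, on the log2(signal + 26.4) scale used throughout, was 0.82 in uninephrectomised and 0.26 in sham mice, and the limma estimate of 0.54 ± 0.16 (SE) did not pass (adjusted p = 0.0617). It crossed the threshold with a larger offset (adjusted p = 0.0495) or a stricter filter on expression (adjusted p = 0.0295). Over all alternatives the limma adjusted p lay between 0.0295 and 0.72. The dimmer probe sets of Pfkp stayed below the filter and disagreed. One had 149.0 and 120.5 in diabetic uninephrectomy and sham kidneys, against 71.6 and 77.0 in nondiabetic ones. The other had 107.6 and 89.4, against 133.7 and 84.6, in the same order.

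Pkm encodes the muscle-type pyruvate kinase, whose probe set does not separate its splice forms here, and it catalyses the last, ATP-yielding step. Its signals were 2241.1 and 1809.4 in diabetic uninephrectomy and sham kidneys, against 1465.9 and 1613.8 in nondiabetic uninephrectomy and sham kidneys. The groups did not overlap, with log2 differences of 0.60 in uninephrectomised and 0.16 in sham mice and a limma adjusted p of 0.315. Pfkl, the liver-type phosphofructokinase, had signals of 723.6 and 688.1, against 504.4 and 604.8, in the same order. Its dimmer probe sets disagreed: one, at 294.7 and 219.6 in diabetic uninephrectomy and sham kidneys against 356.9 and 257.8 in nondiabetic ones, was lower with diabetes in each surgical arm.

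Other genes of the pathway had smaller limma estimates for diabetes. Ldha, which turns pyruvate to lactate, had signals of 11801.1 and 9951.7 in diabetic uninephrectomy and sham kidneys, against 8773.4 and 9425.3 in nondiabetic uninephrectomy and sham kidneys, with no overlap. Tpi1, which interconverts the triose phosphates, had 15656.4 and 14236.2, against 13117.9 and 11754.7, and all 3 of its probe sets had both diabetic arrays above. Aldoa, the muscle-type aldolase, had 16346.1 and 17441.4, against 14471.9 and 14932.4, with the same pattern in 4 of its 5 probe sets. Pgk1, which makes ATP from bisphosphoglycerate, did so in 2 of its 3 probe sets, but not in the brightest one, at 17723.0 and 19675.4, against 20182.6 and 16169.4. The other members of the branch (Hk1, Pfkm, Pgam1, Eno3 and Ldhb) had limma estimates for diabetes between -0.02 and 0.15.

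The 3 control probe sets of Gapdh, often used as a constant reference transcript, gave log2 differences with diabetes between -0.09 and 0.04 in uninephrectomised mice and between 0.09 and 0.26 in sham mice. Hk2, the insulin-responsive hexokinase, had low signals of 109.3 and 87.6 in diabetic uninephrectomy and sham kidneys, against 94.3 and 71.1 in nondiabetic ones. Hk3 had 160.0 and 93.7, against 63.1 and 101.9, on its brighter probe set, and its dimmer one ran the other way in uninephrectomised mice, so no direction can be read for it. Over the 12 glycolytic members above the filter the median log2 difference with diabetes was 0.17 in uninephrectomised and 0.20 in sham mice. Of the 12, 8 lay above 0 in uninephrectomised mice and 12 in sham mice. Of 11197 expressed genes, 5442 and 5782 did so in these arms, and of 381 with a mean signal of at least 10000, 89 and 277. The 18 spike-in probe sets lay between -0.63 and -0.24 in uninephrectomised and between 0.18 and 0.45 in sham mice.

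**Figure D2:**
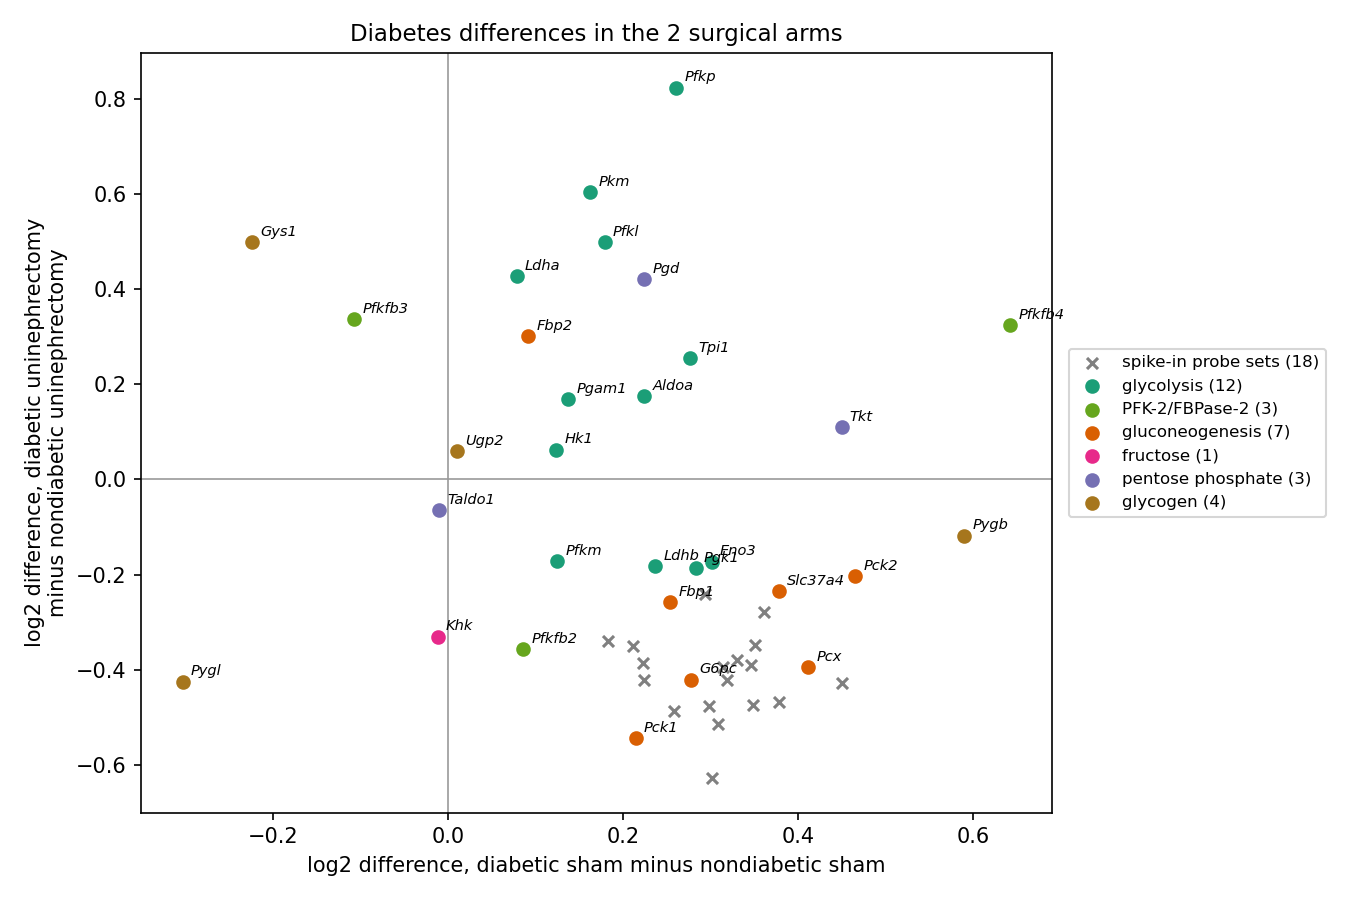
Each coloured point is a member, with its log2 difference between diabetic and nondiabetic sham arrays on the x axis and between diabetic and nondiabetic uninephrectomy arrays on the y axis, and each cross is 1 of 18 spike-in probe sets. The axes share no array. Glycolytic points lie right of 0, Pfkp highest at 0.82 on the y axis, while 6 of 7 gluconeogenic points lie to the lower right of the origin, where all the spike-ins lie.

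The promoters of the leading members were set beside these values, since Hif1a and Myc are known activators of glycolytic genes and cyclic AMP signalling through Creb1 a known activator of Pck1. RefSeq promoters of assembly GRCm38.p6, from 250 bases before to 50 bases after a transcript start, were available for all 37 genes, 58 promoters in all. The hypoxia-response core ACGTG, searched on both strands, stood in 12 of 27 glycolytic promoters and in 2 of 10 gluconeogenic ones. It stood in 39.7% of all member promoters and in 19.6% of all 32851 mouse promoters searched. The E-box CACGTG, which contains that core on both strands, stood in 12.1% and 7.15% of them. The cyclic AMP half-site TGACG stood in 4 of 27 glycolytic and 4 of 10 gluconeogenic promoters, in 27.6% of all member promoters and in 20.8% of all mouse promoters. For the antioxidant motif TGACNNNGC, found in promoters of NADPH-producing genes, the shares were 12.1% and 12.4%. Several promoters belong to 1 gene, and a match is a string of letters and not a shown binding site.

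A promoter each of Pfkp, Pkm, Ldha and Pck1 is shown, since Pfkp and Pkm led their branch, Ldha makes lactate from the product of Pkm, and the Pck1 probe sets disagreed with each other. RefSeq lists 2 promoters each for Pkm and Ldha, and the one with a core match was chosen for display, while the other holds 0 core sites in both genes. Capitals mark ACGTG or its reverse complement in the first 3, and TGACG or its reverse complement in Pck1. The displayed Ldha promoter (chr7:46845554-46845853, plus strand) holds 3 separate core sites, 2 of them within an E-box. The displayed Pkm promoter (chr9:59656977-59657276, plus strand) holds 2. The Pfkp promoter (chr13:6648722-6649021, minus strand) holds none in this window. The Pck1 promoter (chr2:173152823-173153122, plus strand) holds 1 cyclic AMP half-site. The displayed Ldha promoter also holds that half-site, on both strands as TGACGTCA, which is left in lower case.
Pfkp: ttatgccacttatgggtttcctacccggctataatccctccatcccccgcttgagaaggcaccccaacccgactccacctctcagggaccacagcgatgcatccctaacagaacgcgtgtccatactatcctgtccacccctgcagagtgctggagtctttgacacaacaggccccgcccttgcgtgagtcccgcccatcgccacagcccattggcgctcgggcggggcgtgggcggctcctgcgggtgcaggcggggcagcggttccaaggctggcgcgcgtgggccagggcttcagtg
Pkm: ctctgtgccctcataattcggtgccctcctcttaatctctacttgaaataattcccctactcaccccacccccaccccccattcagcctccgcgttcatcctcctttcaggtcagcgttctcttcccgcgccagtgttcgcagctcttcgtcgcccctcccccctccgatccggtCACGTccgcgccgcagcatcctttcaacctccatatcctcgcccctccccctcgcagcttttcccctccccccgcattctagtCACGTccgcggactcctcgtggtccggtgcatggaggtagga
Ldha: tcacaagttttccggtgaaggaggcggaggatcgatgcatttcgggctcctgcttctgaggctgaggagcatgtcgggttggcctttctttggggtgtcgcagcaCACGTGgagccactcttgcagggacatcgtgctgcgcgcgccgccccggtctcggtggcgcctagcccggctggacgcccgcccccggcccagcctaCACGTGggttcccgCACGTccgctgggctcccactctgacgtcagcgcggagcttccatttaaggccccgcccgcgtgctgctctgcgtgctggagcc
Pck1: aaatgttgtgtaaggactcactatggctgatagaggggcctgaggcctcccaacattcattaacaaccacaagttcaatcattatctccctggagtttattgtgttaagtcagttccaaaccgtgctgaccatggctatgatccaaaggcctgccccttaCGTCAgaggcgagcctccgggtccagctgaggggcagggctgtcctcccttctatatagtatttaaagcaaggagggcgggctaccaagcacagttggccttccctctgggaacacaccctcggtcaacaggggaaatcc

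The bifunctional PFK-2/FBPase-2 genes set the level of fructose 2,6-bisphosphate, which drives phosphofructokinase and restrains fructose bisphosphatase. Pfkfb4, a form also known from testis and hypoxic cells, had signals of 212.8 and 287.8 in diabetic uninephrectomy and sham kidneys, against 164.6 and 174.9 in nondiabetic uninephrectomy and sham kidneys. The groups did not overlap, with log2 differences of 0.32 in uninephrectomised and 0.64 in sham mice and a limma adjusted p of 0.72. Pfkfb2, the heart form, had 309.3 and 354.8, against 403.5 and 332.9, and Pfkfb3, the inducible form, had 297.5 and 272.7, against 230.1 and 295.8. For both, the diabetic and nondiabetic ranges overlapped. These are dim probe sets, and the standard errors of the limma estimates were 0.25 for Pfkfb2, 0.27 for Pfkfb3 and 0.30 for Pfkfb4.

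The order of the arrays in most gluconeogenic genes followed neither factor. In 6 of 7 (Pck1, Pck2, G6pc, Fbp1, Pcx and Slc37a4) the diabetic sham and nondiabetic uninephrectomy arrays stood above the other 2, a pattern held by 11 of 30 members, by 18.2% of all expressed genes and by 49.1% of those with a mean signal of at least 10000. The spike-ins held it as well, with median log2 differences with diabetes of -0.41 in uninephrectomised and 0.31 in sham mice over 18 probe sets, where the branch had -0.26 and 0.28. Expressed genes with a mean signal of at least 10000 had medians of -0.13 and 0.10. Of the 6 genes, Pck1, G6pc and Fbp1 were that bright, while Pck2, Pcx and Slc37a4 were not. After quantile normalisation the branch kept the same signs at smaller sizes, -0.20 and 0.16. The part of array brightness in the gluconeogenic values was not tested.

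Pck1, the cytosolic phosphoenolpyruvate carboxykinase that commits oxaloacetate to glucose synthesis, had signals of 18385.9 and 24397.8 in diabetic uninephrectomy and sham kidneys, against 26827.7 and 21030.6 in nondiabetic uninephrectomy and sham kidneys. The lowest value was the diabetic uninephrectomy one, and the sham pair ran the other way. Its dimmer probe sets gave another picture. One had 1923.3 and 2700.1 in diabetic uninephrectomy and sham kidneys, against 2973.7 and 3221.3 in nondiabetic ones, and the dimmest had 226.4 and 239.9, against 591.6 and 449.9. Both had both diabetic arrays below both nondiabetic ones. With each probe set fitted singly, limma gave -1.06 ± 0.23 (SE, adjusted p = 0.067) for the dimmest, -0.44 ± 0.16 (adjusted p = 0.396) for the middle one and -0.17 ± 0.20 (adjusted p = 0.96) for the brightest. None of the 3 passed, and which of them follows the transcript best was not tested.

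**Figure D3:**
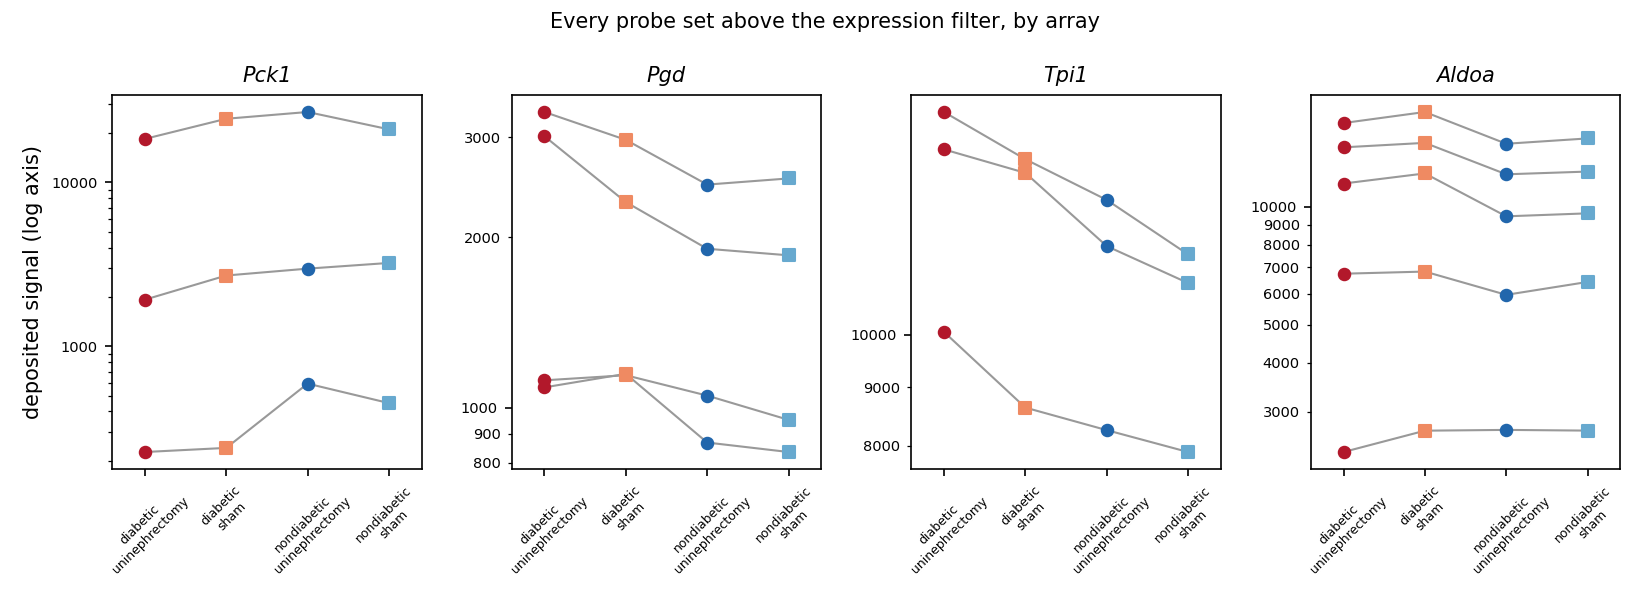
Signals (log axis) of every probe set above the filter on the 4 arrays, each line 1 probe set, for Pck1, Pgd, Tpi1 and Aldoa. The 2 dimmer Pck1 lines are lower on both diabetic arrays than on both nondiabetic arrays while the brightest is not, and all 4 Pgd lines and all 3 Tpi1 lines are higher on both diabetic arrays.

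Pck2, the mitochondrial carboxykinase, was dim, at 277.7 and 319.7 in diabetic uninephrectomy and sham kidneys, against 323.7 and 224.4 in nondiabetic uninephrectomy and sham kidneys. G6pc, the glucose-6-phosphatase catalytic subunit that releases free glucose, had 17191.3 and 18924.6, against 23022.5 and 15614.1, with log2 differences with diabetes of -0.42 in uninephrectomised and 0.28 in sham mice. Fbp1, the fructose bisphosphatase of liver and kidney, had 39513.8 and 49796.3, against 47233.6 and 41762.8. In each of these genes the diabetic values overlapped the nondiabetic ones.

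Pcx, pyruvate carboxylase, which feeds oxaloacetate to the pathway, had 2976.0 and 4085.4 in diabetic uninephrectomy and sham kidneys, against 3919.2 and 3065.1 in nondiabetic uninephrectomy and sham kidneys. A control probe set at the 3' end of the same transcript had 2640.2 and 3445.4, against 3152.7 and 3066.5, so the diabetic uninephrectomy array was again the lowest. The ratio of its 3' to 5' control signals, a measure of how far labelling reached along the transcript, was 15.6 and 18.3 in diabetic uninephrectomy and sham kidneys, against 16.3 and 12.5 in nondiabetic ones. Slc37a4, the transporter that carries glucose 6-phosphate into the endoplasmic reticulum, had 6281.1 and 8224.0, against 7396.2 and 6324.1. Fbp2, the muscle-type bisphosphatase, was the exception of the branch, with 1355.6 and 1335.3, against 1095.4 and 1251.8, and no overlap.

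Most of these enzymes belong to the proximal tubule, whose 15 expressed markers had median log2 differences with diabetes of -0.47 in uninephrectomised and 0.03 in sham mice. One of them, the organic anion transporter Slc22a8, fell with diabetes (limma estimate -0.72, adjusted p = 0.00725), a call lost in 5 of 10 alternatives (limma adjusted p up to 0.511). The part of these markers in the gluconeogenic values was not tested. Pck1 and Pcx are also made by adipocytes, whose 4 markers above the filter summed to 13228 and 26326 in diabetic uninephrectomy and sham kidneys, against 5381 and 14443 in nondiabetic ones. Of these markers 3 rose with diabetes and 2 fell with uninephrectomy, and their part in the values of both genes was not tested.

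Khk, ketohexokinase, the only fructose gene of the set, had signals of 9271.3 and 10791.5 in diabetic uninephrectomy and sham kidneys, against 11665.0 and 10883.5 in nondiabetic uninephrectomy and sham kidneys. The diabetic sham value lay just below the nondiabetic ones, with a log2 difference of -0.01 in sham and -0.33 in uninephrectomised mice, and limma gave an adjusted p of 0.93. Of other fructose genes with a probe set, Tkfc, which phosphorylates glyceraldehyde, had 1073.9 and 1214.5, against 1080.2 and 801.7. Glyctk, a glycerate kinase, had 955.3 and 962.0, against 945.6 and 1156.1. Neither passed limma.

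In the pentose phosphate pathway, Pgd, the second NADPH-producing dehydrogenase, had 3323.5 and 2968.3 in diabetic uninephrectomy and sham kidneys, against 2475.0 and 2537.6 in nondiabetic uninephrectomy and sham kidneys. The groups did not overlap on any of its 4 probe sets, whose mean log2 differences lay between 0.17 and 0.48. The limma estimate for the brightest was 0.32 ± 0.15 (SE, adjusted p = 0.452). Tkt, transketolase of the non-oxidative arm, had 13153.5 and 14784.1, against 12181.7 and 10820.2, with no overlap on its 2 probe sets above the filter and a limma adjusted p of 0.745. Taldo1, transaldolase of the same arm, had 4905.5 and 5028.6, against 5132.3 and 5065.8, and its diabetic values lay below by log2 differences of only -0.06 and -0.01.

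Outside the listed members, 8 further pentose phosphate genes were looked up, of which 6 passed the filter and 1 rose with diabetes. H6pd, the dehydrogenase of the endoplasmic reticulum that supplies NADPH to steroid reduction there, had signals of 1887.8 and 2077.7 in diabetic uninephrectomy and sham kidneys, against 1298.7 and 1211.7 in nondiabetic uninephrectomy and sham kidneys. Its log2 differences were 0.53 in uninephrectomised and 0.77 in sham mice, and it passed limma at 0.65 ± 0.16 (SE, adjusted p = 0.0107). The call was lost in 5 of 10 alternatives: median centring, no filter, the mean of probe sets, single probe sets and limma without a trend, with limma adjusted p between 0.0037 and 0.334 over all 10. Rbks, ribokinase, had 393.0 and 560.8, against 447.7 and 482.8. Pgls, the lactonase between both oxidative steps, had 1293.1 and 1252.2, against 1410.1 and 1064.3. Neither of these passed.

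Glycogen genes had no common direction. Pygl, the liver-type phosphorylase, had 737.3 and 933.5 in diabetic uninephrectomy and sham kidneys, against 998.9 and 1158.3 in nondiabetic uninephrectomy and sham kidneys, with a limma estimate of -0.36 ± 0.18 (SE, adjusted p = 0.487). Pygb, the brain-type phosphorylase, had 377.9 and 476.0, against 412.4 and 307.4, so it was higher with diabetes in sham mice (log2 difference 0.59) and slightly lower in uninephrectomised mice (-0.12). Gys1, muscle-type glycogen synthase, had its highest signal on the diabetic uninephrectomy array, at 455.1 and 307.3 in diabetic kidneys, against 314.3 and 363.5 in nondiabetic ones. Ugp2, which makes UDP-glucose, gave limma estimates near 0 for diabetes (0.04). None of the 10 further glycogen genes above the filter passed, and the 3 with the largest mean differences were the liver synthase Gys2 (log2 estimate for diabetes -0.63), the phosphorylase kinase subunit Phka1 (for uninephrectomy -0.47) and the glycogen-targeting subunit Ppp1r3c (for diabetes 0.42).

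Isoforms of 1 step were compared through their differences between arrays, since levels of different probe sets cannot be set against each other. With diabetes in uninephrectomised mice, the log2 difference of Pfkp exceeded that of Pfkm by 0.996, and that of Pfkl exceeded it by 0.67. In sham mice these gaps were 0.14 and 0.05. Ldha exceeded Ldhb by 0.61 in uninephrectomised mice, where in sham mice the gap was -0.16. Fbp2 exceeded Fbp1 by 0.56 and -0.16 in the same arms, and Pygb exceeded Pygl by 0.31 and 0.89. For the other pairs computed, the gap in uninephrectomised and sham mice was 0.69 and -0.19 for Pfkfb3 over Pfkfb2, 0.68 and 0.56 for Pfkfb4 over Pfkfb2, and 0.34 and 0.25 for Pck2 over Pck1. The sign of a gap depends on which isoform is named first, and Pfkm and Pfkfb2 recur among the pairs, so no count over pairs is read. With 1 array a group these gaps have no test.

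Uninephrectomy alone separated the members little. By limma, 0 of 30 passed for this factor, where 0.339% of all expressed genes rose and 0.179% fell. An unadjusted limma p below 0.05 was held by 0 of 30 members and by 635 of 11197 expressed genes. No member differed by 1.5-fold, in diabetic mice (where 5% of all genes were higher and 4.34% lower) or in nondiabetic mice (where 3.82% were higher and 2.81% lower). Both uninephrectomised arrays stood above both sham arrays for 2 members, Eno3 and Ugp2, where 13.6% of all genes did so, and below for 1, Hk1, where 15.4% did so. Eno3, the muscle enolase, had 223.3 and 255.1 in diabetic and nondiabetic uninephrectomy kidneys, against 213.2 and 168.1 in diabetic and nondiabetic sham kidneys. Ugp2 had 6102.0 and 5851.4, against 5114.4 and 5078.7, and Hk1, the constitutive hexokinase, had 2017.4 and 1930.5, against 2265.5 and 2078.0.

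The effect of surgery in diabetic mice was the lower one for the gluconeogenic branch, with a median log2 difference of -0.33, against 0.35 in nondiabetic mice. For glycolysis these medians were -0.02 and -0.07, and for the pentose phosphate branch -0.04 and 0.02. The gap between the glycolytic and the gluconeogenic median was 0.43 for diabetes in uninephrectomised mice, -0.08 for diabetes in sham mice, 0.32 for uninephrectomy in diabetic mice and -0.42 for uninephrectomy in nondiabetic mice. Each array enters 2 of these 4 comparisons, which are thus not independent. A gap between branches within the same arrays describes unequal change and was not tested.

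**Figure D4:**
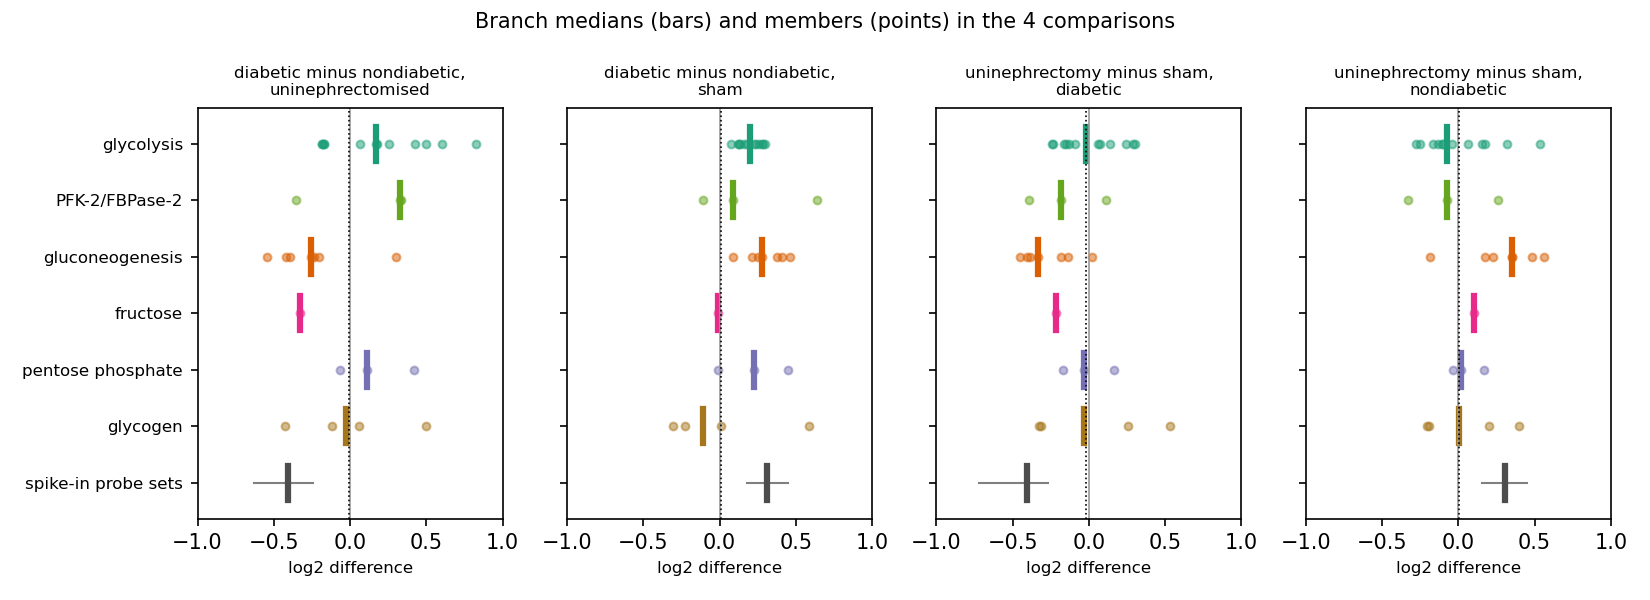
Points are members and thick bars branch medians of the log2 difference in each of the 4 comparisons, with the range and median of 18 spike-in probe sets in grey and the median of all expressed genes as a dotted line. The gluconeogenic medians (-0.26, 0.28, -0.33 and 0.35 in panels left to right) take the same signs as the spike-in medians (-0.41, 0.31, -0.41 and 0.30), while the glycolytic medians are 0.17, 0.20, -0.02 and -0.07.

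Genes that decide the fate of pyruvate and regulators of the pathways were taken from lists. Among 11 pyruvate genes above the filter, 1 rose with diabetes, the pyruvate dehydrogenase kinase Pdk4, which blocks pyruvate entry to the mitochondrial cycle. Its signals were 2201.0 and 2495.5 in diabetic uninephrectomy and sham kidneys, against 1212.4 and 715.7 in nondiabetic uninephrectomy and sham kidneys (limma 1.31 ± 0.17, SE, adjusted p = 2.51e-07). This call was lost in 3 of 10 alternatives, with limma adjusted p of 0.054 with no filter, 0.125 with the mean of probe sets and 0.209 without a trend. Pdk1, its hypoxia-responsive relative, had 793.7 and 819.4, against 640.1 and 667.2, with no overlap but no pass. Pdk2 had 688.5 and 935.5, against 725.3 and 663.3. Of 7 further glycolytic genes above the filter none passed. The largest differences were those of Ldhd, a D-lactate dehydrogenase, at 4328.9 and 4438.1 in diabetic uninephrectomy and sham kidneys, against 5789.3 and 6138.4 in nondiabetic ones (limma -0.44 ± 0.15, SE, adjusted p = 0.155), and of Aldoc, the brain-type aldolase, at 1525.6 and 1513.6, against 939.9 and 1478.8.

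Of 12 regulators above the filter none passed for diabetes or uninephrectomy. Myc had 553.7 and 214.0 in diabetic uninephrectomy and sham kidneys, against 245.7 and 129.2 in nondiabetic uninephrectomy and sham kidneys, with limma estimates of 0.86 for diabetes (adjusted p = 0.102) and 1.04 for uninephrectomy (adjusted p = 0.0621). Ppargc1a, a coactivator of mitochondrial and gluconeogenic genes, had 2665.5 and 3649.6, against 3470.8 and 4107.3, and the glucocorticoid receptor Nr3c1 had 2183.5 and 1997.3, against 2743.3 and 2477.6. Hif1a, named here because its motif was searched, had 6249.7 and 6034.4, against 4665.7 and 5300.5, with no overlap and a limma adjusted p of 0.56. Its transcript does not report the protein, whose level is set by oxygen-dependent breakdown.

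Pfkp, Pkm and Pfkl, which had the largest limma estimates of the glycolytic branch, had their highest signals on the diabetic uninephrectomy array, where the summed injury and myeloid markers were also highest. Havcr1, an injury marker of the proximal tubule, had 2551.6 on the diabetic uninephrectomy and 359.0 on the diabetic sham array, against 98.8 and 221.0 on the nondiabetic uninephrectomy and sham arrays. Of 7 injury markers 6 rose with diabetes, a count of 0 with no filter, with the mean of probe sets or with limma without a trend. Of 8 myeloid markers above the filter 2 passed limma as higher with diabetes, Lyz2 and Cd14. For Cd14 the log2 difference with diabetes was 2.29 in uninephrectomised but -0.28 in sham mice. The brightest, Csf1r, did not pass, at 5181.9 and 5928.5 in diabetic uninephrectomy and sham kidneys, against 5092.9 and 6557.7 in nondiabetic ones. Lyz2 passed at a limma adjusted p of 4.8e-07, and over the alternatives this ranged up to 0.316. The median log2 difference of the myeloid list with diabetes was 0.68 in uninephrectomised and 0.08 in sham mice, where that of the injury list was 2.07 and 0.53. In sham mice the log2 differences of Pfkp, Pkm and Pfkl were 0.26, 0.16 and 0.18. The part of these markers in the glycolytic values was not tested.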

How the data were processed

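Per the labels' protocols, each array received 100 ng of RNA pooled from 4 mice, labelled with the 3' IVT Express kit. The authors deposited 1 table of linear intensity values for 45101 probe sets. For the summarising software and background correction, the sources used here give no name. The trimmed mean intensity was 500.003 on each array, so a common scaling preceded deposit. Platform annotation gave 1 gene symbol to 34945 probe sets. Those with several symbols or none, and 64 control probe sets, were left out except where named.

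Intensities were put on the log2(value + 26.4) scale, 26.4 being the 20th percentile of all values, which understates fold changes of dim genes. Each gene was represented by its probe set of highest mean, and genes with a mean of at least 7.06 (the median over probe sets) were kept. Differences between single arrays have no test. Both factors were fitted with limma 3.58.1 (R 4.3.3, eBayes with a trend, Benjamini-Hochberg over 11197 genes, threshold 0.05), with 1 residual and 59.5 prior degrees of freedom a gene. The fit was tried on simulated data with additive effects and independent noise set by mean signal. That setting cannot show how well the fit holds on these 4 arrays. The 4 motifs named in the text were searched in RefSeq promoters of GRCm38.p6. Precision is limited by having 4 arrays.

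The members and lists were chosen with earlier results of these data known. Signals were printed for every gluconeogenic, fructose and pentose phosphate member, every member at least 1.5-fold different in a comparison, 2 or 3 others a branch by largest mean difference, and up to 3 genes of each further list. Ldha, Tpi1, Aldoa, Pgk1, Hk1, Hk2, Hk3, Eno3, Ugp2 and Hif1a were added after their values were seen, as were the counts of arrays that do not overlap and the group of bright genes. Alternatives were quantile normalisation, median centring, other offsets and filters, the mean of probe sets, single probe sets, limma without a trend and a looser threshold.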

Additional observations from a re-analysis of the deposited data

Results flagged for a closer look

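Differences that ran one way in one arm and the other way in the other arm were picked out where both were at least 1.2-fold, or at least 0.1 on the log2 scale for a branch median. With 1 array a group these contrasts were not tested. The gluconeogenic median was -0.2573 for diabetes in uninephrectomised mice and 0.277 in sham mice, and -0.3335 for uninephrectomy in diabetic mice against 0.3508 in nondiabetic mice. Within that branch, Pck1 differed with uninephrectomy by -0.4076 in diabetic and 0.3508 in nondiabetic mice. G6pc differed with diabetes by -0.4208 in uninephrectomised and 0.277 in sham mice. Pcx did so by -0.3941 and 0.4115 with diabetes, and with uninephrectomy by -0.4537 in diabetic and 0.3519 in nondiabetic mice. Among glycogen genes, Pygb differed with uninephrectomy by -0.3134 in diabetic and 0.3946 in nondiabetic mice. Pfkp alone ran the opposite way, by 0.2869 with uninephrectomy in diabetic mice and -0.2768 in nondiabetic mice. Spike-in probe sets ran the same way as the gluconeogenic genes, with uninephrectomy medians of -0.41 in diabetic and 0.30 in nondiabetic mice.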

How the results depend on the processing

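No paired analysis was possible because each group has 1 array, and for the same reason no array could be left out. The number of members passing limma stayed at 0 for uninephrectomy under all 10 alternatives. For diabetes it was 1, Pfkp, with the offset at the 40th percentile (72.5), with the filter at the 75th percentile and at an adjusted p below 0.1. Pfkp had an adjusted p between 0.0295 and 0.72 over the alternatives. Its log2 estimate was 0.37 with the mean of its probe sets and between 0.53 and 0.56 otherwise. Of all genes, 250 passed for diabetes and 58 for uninephrectomy. With median centring these were 86 and 9, with no filter 13 and 2, with the mean of probe sets 3 and 1, with single probe sets 62 and 16, and without a trend 0 and 4. Uninephrectomy gave 116 genes after quantile normalisation and 95 at an adjusted p below 0.1. Members at least 1.5-fold different with diabetes in uninephrectomised mice numbered 2, but 1 after quantile normalisation, 4 after median centring and 5 of 54 as single probe sets. In sham mice they numbered 2, but 0 after median centring, with the larger offset and with the stricter filter. With uninephrectomy in diabetic mice there was 1 after median centring and 1 with no filter, and in nondiabetic mice 1 with an offset of 1 and 1 as single probe sets, against 0 otherwise. The glycogen median for uninephrectomy in diabetic mice was -0.03, but -0.31 with the mean of probe sets. The gluconeogenic medians kept their signs under quantile normalisation, median centring and the mean of probe sets. Median centring shifted the median of all expressed genes to 0.11 for diabetes in uninephrectomised and -0.08 in sham mice. In 2 alternatives added after seeing the data, quantile normalisation and median centring, 6 and 5 of 12 glycolytic members had both diabetic arrays above, against 7 (19.4%, 18.7% and 19.1% of all expressed genes in this order), and 5 and 6 of 7 gluconeogenic members were highest on the diabetic sham and nondiabetic uninephrectomy arrays, against 6. Over all expressed genes that last pattern was held by 18% after quantile normalisation and 8.08% after median centring, against 18.2%.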
